A study of Mus musculus with 12 samples.

Results

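Expression of 10 genes of the circadian clock was followed across mouse lung fibroblasts: the period genes Per1, Per2 and Per3, the cryptochromes Cry1 and Cry2, the nuclear receptors Nr1d1 and Nr1d2, the PAR bZIP factors Dbp and Tef, and Ciart. They are the 10 rows of the deposited table, of 20606 in all, whose gene symbol is on that list, and 10 of 10 passed the filter on low values. The series compared fibroblasts of mice with lung metastasis with those of normal mice, in connection with breast cancer that spreads to the lung. Each was split into the MF subgroup, which the series title calls matrix fibroblasts, and the MyoF subgroup, an abbreviation that the labels do not spell out. The 4 groups of 3 bulk RNA libraries are M-MF and N-MF, and M-MyoF and N-MyoF, where M marks mice with lung metastasis and N marks normal mice. The labels give neither the strain, age or sex of the mice, nor the tumour line, the time after its spread, the markers of the sort or the hour of collection, and name no drug, transgene or allele. Whether the 3 libraries of a group stem from different mice is not stated, and p-values here reflect library-to-library spread alone, which may be technical.

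The clock is a feedback loop of transcription that runs in most cells, lung fibroblasts included, and that makes its genes cycle over the day. The proteins of Clock and Arntl (BMAL1), or of Npas2 in place of Clock, bind E-boxes in DNA and switch on the period and cryptochrome genes, whose proteins then block that activity. The same activators drive Nr1d1 and Nr1d2 (REV-ERB alpha and beta), which repress Arntl through the elements that ROR receptors use, and Dbp, which binds D-boxes as does its relative Tef. Ciart (CHRONO) encodes a further repressor of the Clock and Arntl pair. Because these transcripts cycle, a group difference in level and a group difference in the phase of the cycle cannot be told apart in these data.

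The promoters below show the letters through which the loop is known to work, in the members with the largest metastasis effects and with repeated motifs. Sequences came from RefSeq on GRCm38.p6, the build family named in the submitters' processing notes, and run 5′ to 3′ on the strand of the gene over 300 bases, from 250 before to 50 after the start. The table held 11 such windows for 9 of the 10 members, Per2 being the member not matched. Nr1d1 was taken by the rule on size of change, and Tef, Per3 and Ciart were chosen after their values were seen. Capitals mark the motifs found, on either strand. The windows lie at chr11:98775328-98775627 (minus strand) for Nr1d1, chr15:81802423-81802722 (plus strand) for Tef, chr4:151044616-151044915 (minus strand) for Per3 and chr3:95882179-95882478 (minus strand) for Ciart.
Nr1d1: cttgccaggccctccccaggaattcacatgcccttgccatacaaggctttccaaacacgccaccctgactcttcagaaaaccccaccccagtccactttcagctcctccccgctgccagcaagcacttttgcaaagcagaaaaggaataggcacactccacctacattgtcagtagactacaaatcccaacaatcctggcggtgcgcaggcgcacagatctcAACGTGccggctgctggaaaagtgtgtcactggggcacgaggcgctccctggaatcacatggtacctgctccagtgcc
Tef: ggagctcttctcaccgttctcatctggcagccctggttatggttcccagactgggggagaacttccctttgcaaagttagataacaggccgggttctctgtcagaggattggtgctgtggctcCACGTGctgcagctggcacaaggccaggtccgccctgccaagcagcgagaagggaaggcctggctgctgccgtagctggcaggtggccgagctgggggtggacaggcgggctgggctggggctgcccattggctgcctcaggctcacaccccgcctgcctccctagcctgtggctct
Per3: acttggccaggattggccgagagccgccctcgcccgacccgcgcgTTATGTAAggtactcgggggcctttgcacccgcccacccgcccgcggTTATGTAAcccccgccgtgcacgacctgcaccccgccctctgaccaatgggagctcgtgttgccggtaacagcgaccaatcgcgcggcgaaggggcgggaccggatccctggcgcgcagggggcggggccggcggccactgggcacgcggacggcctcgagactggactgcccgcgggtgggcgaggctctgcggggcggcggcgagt
Ciart: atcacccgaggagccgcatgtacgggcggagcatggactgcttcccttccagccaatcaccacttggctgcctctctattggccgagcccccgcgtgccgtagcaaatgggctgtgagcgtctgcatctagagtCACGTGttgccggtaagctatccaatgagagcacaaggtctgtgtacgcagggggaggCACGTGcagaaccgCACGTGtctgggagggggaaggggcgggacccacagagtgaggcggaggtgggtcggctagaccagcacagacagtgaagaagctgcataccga

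In the Nr1d1 window the capitals are an E′-box, CACGTT read on the opposite strand, whose leftmost base lies 28 bases before the start. In the Tef window they are an E-box, CACGTG, 127 bases before the start, and the window of a second Tef start has it at 138 bases. Per3 held 2 copies of the D-box TTATGTAA, 205 and 158 bases before the start. Ciart held 3 E-boxes, at 116, 58 and 44 bases.

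Among all 32851 promoter windows of this length, 7.15% held CACGTG, 4.68% CACGTT, 16.3% the ROR element core AGGTCA, 0.938% TTATGTAA and 1.79% the cAMP response element TGACGTCA. Both strands were searched, and CACGTG and CACGTT, which share 5 letters, cannot match at the same 6 bases. Of the 11 windows of members, 5 held the E-box, in Per1, Cry1, Tef and Ciart. The E′-box was in 3 windows, those of Cry1, Cry2 and Nr1d1, and the ROR core in 2, those of Per1 and Nr1d2. The D-box was in 1 window, that of Per3, and the cAMP response element in 0. These matches describe letters and say nothing about binding in these cells.

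**Figure D1:**
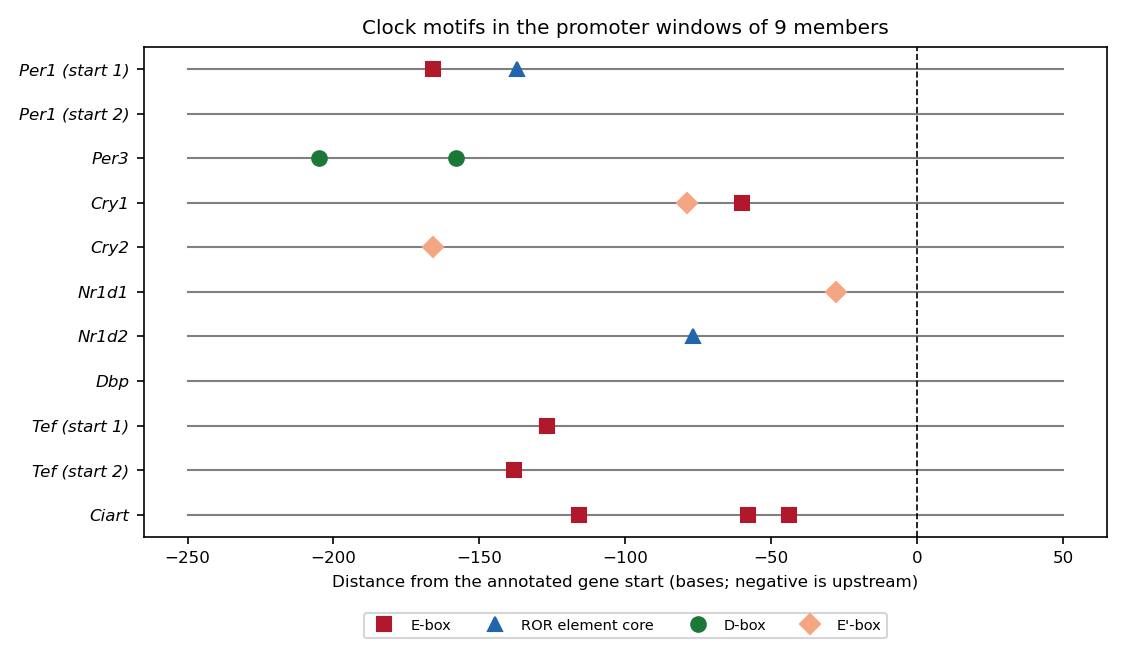
Motifs in the promoter windows of the 9 members matched, by distance in bases from the annotated start; each line is a window and each mark the position of a motif's leftmost base. E-boxes appear in 5 of 11 windows, with 3 in that of Ciart, and both D-boxes are in that of Per3.

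Values are FPKM, which count fragments per transcript length and per library total, so levels can be set side by side between genes. The FPKM of a library summed to 528176 to 618478, and 11466 to 12682 genes reached 1 FPKM. The read depth is not known. In low genes, the FPKM that 1 read is worth was estimated at 0.929 to 1.07 times the median across the libraries. Only values close to a gene's lowest entered that estimate, which bounds it in advance. It therefore cannot show whether relative depths were alike. Fibroblast markers were present in every library: the summed FPKM of 7 genes, Col1a1, Dcn and Lum among them, was 15275 to 15397 in M-MF and 21035 to 21272 in N-MF, against 2065 to 2088 in M-MyoF and 3585 to 3640 in N-MyoF. Markers of other cells were present too. The 6 airway and alveolar epithelial genes summed to 2919 to 2944 FPKM in M-MF and 2418 to 2468 in N-MF, and to 15810 to 16356 in M-MyoF and 19450 to 19962 in N-MyoF. The 8 neutrophil genes summed to 248 to 258 FPKM in M-MF and 31.4 to 35.4 in N-MF, and to 13180 to 13533 in M-MyoF and 135 to 147 in N-MyoF, and 8 of 8 rose with metastasis in both subgroups.

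Summed over the 10 members, FPKM was 98.6 to 104 in M-MF libraries, against 127 to 133 in N-MF libraries. It was 158 to 165 in M-MyoF libraries, against 183 to 191 in N-MyoF libraries. The 4 ranges did not overlap, and the lower sum was that of metastasis in both subgroups. In bulk RNA, fewer cells of a type and less RNA per cell cannot be told apart.

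**Figure D2:**
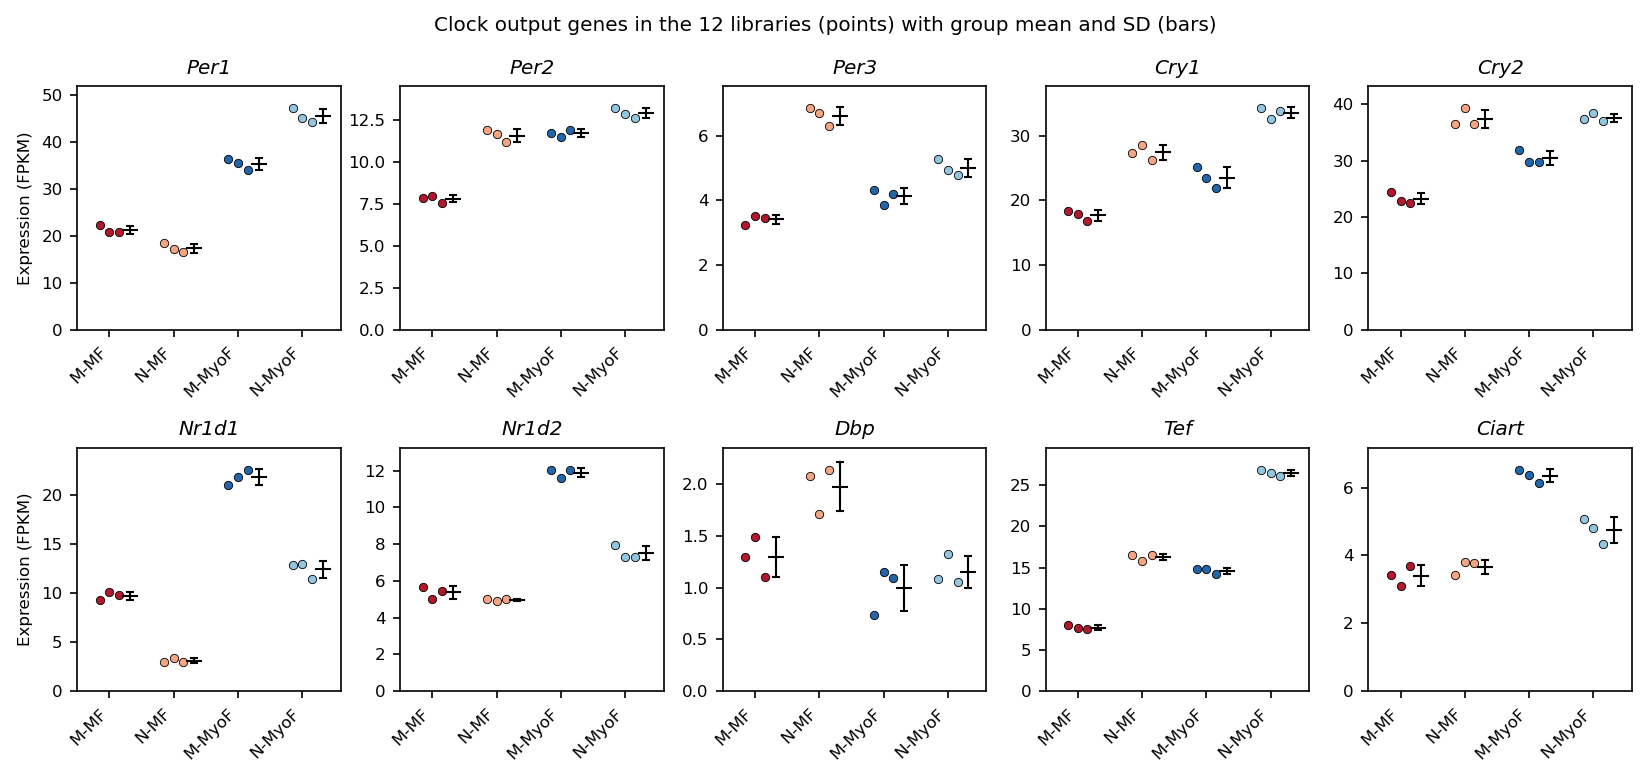
FPKM of the 10 members in each of the 12 libraries, with 1 panel per gene, points for libraries and a bar for the group mean with its SD (n = 3 each, linear axis from 0). Tef and Cry1 are lowest in M-MF and highest in N-MyoF, whereas Nr1d1 and Nr1d2 are lowest in N-MF and highest in M-MyoF.

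M-MF were set against N-MF to ask how matrix fibroblasts differ when the lung holds metastases. Nr1d1, the REV-ERB alpha repressor, rose 3.13-fold in FPKM, and the D-box factor Tef fell to 0.474 times its N-MF level. Cry1, Cry2, Per2 and Per3 fell as well, so that 4 of the 5 period and cryptochrome genes, whose proteins repress the loop, were lower in M-MF, and Per1 was higher. Dbp fell, while Nr1d2 and Ciart did not pass the test. With limma on log2(FPKM + 1) and Benjamini-Hochberg adjustment over all 13300 genes tested, 2 of the 10 rose, 6 fell and 2 were not called at an adjusted p under 0.05. Among all genes tested 46.3% rose and 31.8% fell, so a call by itself is common here. Higher genes were 59.3% of those called, and 49.9% with equal sums, 47.8% with median-ratio scaling and 40.9% with quantile normalization. The median log2 fold change was -0.45 over the members and 0.08 over all genes. At 2-fold or more the test called 1 member, Nr1d1, and 11.9% of all genes.

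M-MyoF were set against N-MyoF to ask the same of the MyoF subgroup. Nr1d1 rose 1.76-fold in FPKM and its paralogue Nr1d2 rose 1.58-fold, and Ciart rose. Tef fell to 0.552 times its N-MyoF level, and all 5 period and cryptochrome genes fell, Per1 included. In limma's test 3 of 10 members rose, 6 fell and 1, Dbp, was not called. Among all genes tested 49.1% rose and 31.6% fell. Higher genes were 60.8% of those called, and 45.8% with equal sums, 48.2% with median-ratio scaling and 41.4% with quantile normalization. The median log2 fold change was -0.18 over the members and 0.11 over all genes. At 2-fold or more 0 members were called, against 14.6% of all genes. At an unadjusted p under 0.05, with no demand on size, 9 of 10 members passed. Of all 13300 genes tested 10734 passed even at an adjusted p under 0.05, so such a pass is common here.

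**Figure D3:**
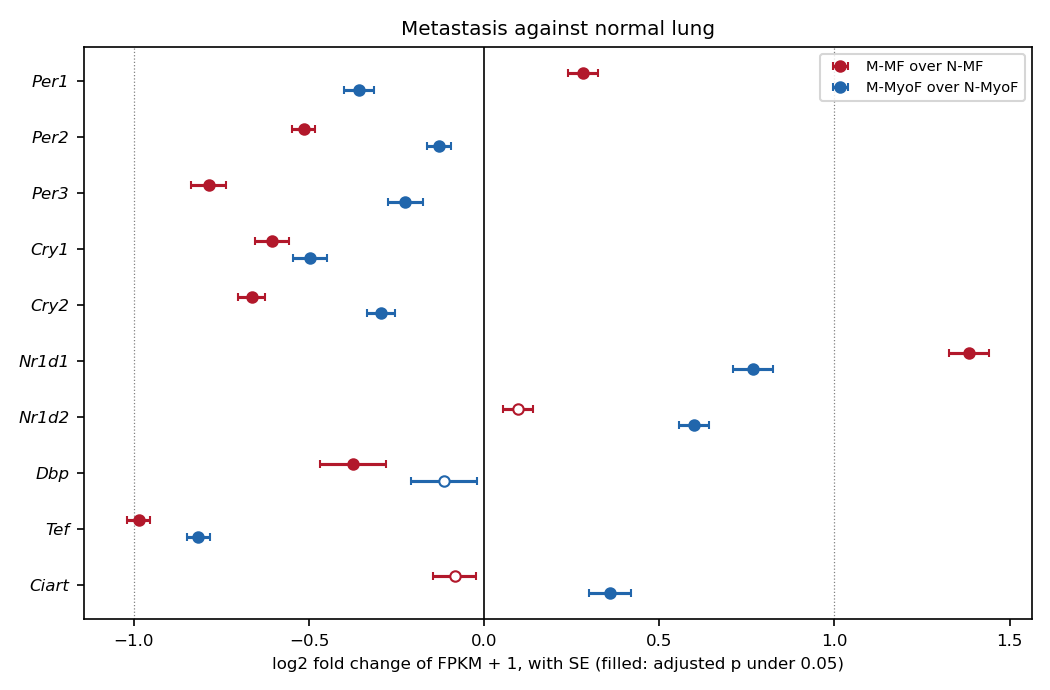
Log2 fold change with metastasis, on the log2(FPKM + 1) scale, for the 10 members in MF (M-MF over N-MF) and in MyoF (M-MyoF over N-MyoF), with bars of 1 standard error from limma and open points for values not called. Nr1d1 and Tef lie farthest from 0 in both subgroups, and Per1 lies above 0 in MF (0.28) and below it in MyoF (-0.36).

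Per1, on chromosome 11 (NCBI gene 18626, chr11:69095108-69109965), is a period gene that also answers quickly to stimuli. It had 22.29, 20.93 and 20.74 FPKM in M-MF, against 18.41, 17.12 and 16.55 in N-MF. In MyoF it had 36.45, 35.46 and 34.1 FPKM in M-MyoF, against 47.25, 45.22 and 44.25 in N-MyoF. Every M-MF library lay above every N-MF library, and every M-MyoF library lay below every N-MyoF library. On the log2 scale Per1 had 0.28 in MF (SE 0.0426, limma adjusted p 4.95e-05) and -0.36 in MyoF (SE 0.0426, adjusted p 4.98e-06). The rise in MF was smaller under other scalings, 0.18 with equal sums per library, 0.15 with median-ratio scaling and 0.10 with quantile normalization, with adjusted p between 0.00137 and 0.04. The fall in MyoF was larger under equal sums (-0.55) and quantile normalization (-0.67).

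Lists that share stimuli with Per1 were set beside it. Of 12 immediate early genes, such as Fos and Egr1, 12 fell in both subgroups, with median log2 fold changes of -0.85 in MF and -0.98 in MyoF, where 31.8% of all genes fell in MF and 31.6% in MyoF. Of 7 genes of the glucocorticoid response, 2 rose and 4 fell in MF, and 2 rose and 3 fell in MyoF, beside 46.3% of all genes that rose in MF and 49.1% in MyoF. Their log2 fold changes ran from -0.93 to 2.09 in MF (median -0.10) and from -0.85 to 2.18 in MyoF (median -0.01). Fkbp5 was the highest in both, with a mean of 18.1 FPKM in M-MF and 3.49 in N-MF. In MyoF its mean was 18.0 FPKM in M-MyoF and 3.20 in N-MyoF. The part of either list in the Per1 values was not tested.

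Per2 (NCBI gene 18627, chr1:91415977-91459351) had 7.82, 7.96 and 7.55 FPKM in M-MF, against 11.88, 11.62 and 11.15 in N-MF. It had 11.7, 11.47 and 11.91 FPKM in M-MyoF, against 13.18, 12.85 and 12.61 in N-MyoF. The groups did not overlap in either comparison, and the fall was deeper in MF. On the log2 scale it was -0.52 (SE 0.0333, limma adjusted p 1.26e-08) in MF and -0.13 (SE 0.0333, adjusted p 0.00318) in MyoF. The MyoF value was larger with quantile normalization (-0.36), equal sums (-0.31) and median-ratio scaling (-0.28).

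Per3 (NCBI gene 18628, chr4:150997018-151044707), a period gene with a lesser part in keeping the rhythm than Per1 and Per2, had 3.25, 3.53 and 3.45 FPKM in M-MF, against 6.85, 6.69 and 6.29 in N-MF. It had 4.32, 3.87 and 4.21 FPKM in M-MyoF, against 5.29, 4.94 and 4.77 in N-MyoF. Metastasis libraries were the lower in both subgroups, with no overlap. Log2 fold changes were -0.79 (SE 0.0494, limma adjusted p 9.59e-09) in MF and -0.23 (SE 0.0494, adjusted p 0.00102) in MyoF, the MyoF value ranging from -0.13 with a pseudocount of 5 to -0.42 with quantile normalization. Within a library, Per1 was 5.93 to 6.86 times as high as Per3 in M-MF and 2.56 to 2.69 times in N-MF. In MyoF that ratio was 8.10 to 9.16 in M-MyoF and 8.93 to 9.28 in N-MyoF. This ratio, chosen after the values were seen, does not change when a library is multiplied by a single factor, but can change under quantile normalization. Its groups were apart in MF and overlapped in MyoF.

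Cry1 (NCBI gene 12952, chr10:85131700-85185054), which encodes a strong repressor of the loop, had 18.38, 17.85 and 16.81 FPKM in M-MF, against 27.37, 28.55 and 26.32 in N-MF. It had 25.15, 23.41 and 21.99 FPKM in M-MyoF, against 34.27, 32.63 and 33.77 in N-MyoF. No M library reached the lowest N library of its subgroup. The log2 fold changes were -0.61 in MF (SE 0.0478, limma adjusted p 9.76e-08) and -0.50 in MyoF (SE 0.0478, adjusted p 6.34e-07), and the MyoF value was -0.80 under quantile normalization.

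Cry2 (NCBI gene 12953, chr2:92403646-92434085), the other cryptochrome, was the member with the highest level in both MF groups. It had 24.36, 22.86 and 22.54 FPKM in M-MF, against 36.52, 39.31 and 36.44 in N-MF. It had 31.82, 29.78 and 29.73 FPKM in M-MyoF, against 37.33, 38.39 and 36.98 in N-MyoF. Groups were again apart, by a log2 fold change of -0.66 in MF (SE 0.0392, limma adjusted p 5.23e-09) and -0.30 in MyoF (SE 0.0392, adjusted p 1.44e-05). The MyoF value was larger with quantile normalization (-0.59), equal sums (-0.48) and median-ratio scaling (-0.45). Of the exon bases of Cry2 on GRCm38, 4.67% are shared with D930015M05Rik on the opposite strand, and the library method as described does not mark strand.

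Nr1d1 (NCBI gene 217166, chr11:98767932-98775377), whose promoter holds the E′-box printed above, had 9.27, 10.15 and 9.78 FPKM in M-MF, against 2.97, 3.41 and 2.96 in N-MF. It had 21.1, 21.92 and 22.64 FPKM in M-MyoF, against 12.88, 13.03 and 11.46 in N-MyoF. The lowest M-MF library stood well above the highest N-MF library, and the MyoF groups were likewise apart. The log2 fold change was 1.38 in MF (SE 0.0563, limma adjusted p 1.17e-10) and 0.77 in MyoF (SE 0.0563, adjusted p 4.12e-08). With a pseudocount of 5 the MF value was 0.86, and under the 3 other scalings it ranged from 1.20 to 1.30.

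Nr1d1 shares 263 of its 3077 exon bases, 8.55%, with Thra, the thyroid hormone receptor alpha gene on the opposite strand, and reads from there cannot be told apart without strand. Thra, taken as a whole gene, had a mean of 11.3 FPKM in M-MF and 12.7 in N-MF. Its mean was 17.0 FPKM in M-MyoF and 19.9 in N-MyoF. The log2 fold change of Thra was -0.16 in MF (limma adjusted p 0.00446) and -0.22 in MyoF (adjusted p 0.000426). The part of the shared bases in the Nr1d1 values was not tested.

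Nr1d2 (NCBI gene 353187, chr14:18204056-18239106), the REV-ERB beta gene, had 5.67, 5.01 and 5.43 FPKM in M-MF, against 4.99, 4.88 and 4.99 in N-MF. It had 12.05, 11.6 and 12.02 FPKM in M-MyoF, against 7.93, 7.32 and 7.29 in N-MyoF. The MF groups were separated by 0.02 FPKM at their nearest libraries, while the MyoF groups lay far apart. The log2 fold change was 0.10 in MF (SE 0.0438, limma adjusted p 0.0612), which did not pass, and 0.60 in MyoF (SE 0.0438, adjusted p 4.03e-08). The MF value passed with a replicate block (adjusted p 0.0329), without M-MF replicate 2 (0.14, adjusted p 0.012) and without N-MyoF replicate 1 (adjusted p 0.0473), and its sign turned under median-ratio scaling (-0.02) and quantile normalization (-0.06). Within a library, Nr1d1 was 1.63 to 2.03 times as high as Nr1d2 in M-MF and 0.593 to 0.699 times in N-MF. That ratio was 1.75 to 1.89 in M-MyoF and 1.57 to 1.78 in N-MyoF, so N-MF alone had more Nr1d2 than Nr1d1.

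Dbp (NCBI gene 13170, chr7:45705100-45710203) was the member with the lowest level in every group. It had 1.3, 1.49 and 1.1 FPKM in M-MF, against 2.08, 1.71 and 2.14 in N-MF, and these groups did not overlap. It had 0.74, 1.15 and 1.09 FPKM in M-MyoF, against 1.08, 1.33 and 1.05 in N-MyoF, and these did. On the log2 scale Dbp had -0.37 in MF (SE 0.0937, limma adjusted p 0.00271) and -0.12 in MyoF (SE 0.0937, adjusted p 0.271). In MF the call was lost without the 4 libraries numbered 3 (-0.27, adjusted p 0.0606), and the size ran from -0.15 with a pseudocount of 5 to -0.58 with 0.1. In MyoF the test was passed under quantile normalization only (-0.23, adjusted p 0.0342). Dbp shares 539 of 2993 exon bases, 18.0%, with the sphingosine kinase gene Sphk2 on the opposite strand. Sphk2 was more abundant than Dbp, with a mean of 15.6 FPKM in M-MF and 14.8 in N-MF, and 19.1 in M-MyoF and 17.8 in N-MyoF. Of the 4 members with such an overlap, Dbp had the largest shared part.

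Tef (NCBI gene 21685, chr15:81802673-81826863), with an E-box at both of its annotated starts, had 8.05, 7.61 and 7.5 FPKM in M-MF, against 16.53, 15.8 and 16.5 in N-MF. It had 14.79, 14.87 and 14.17 FPKM in M-MyoF, against 26.88, 26.52 and 26.07 in N-MyoF. In both subgroups the highest metastasis library lay far under the lowest normal library, and the spread within groups was small, a coefficient of variation of 3.77% in M-MF and 2.54% in N-MF, and 2.62% in M-MyoF and 1.53% in N-MyoF. The log2 fold change was -0.99 in MF (SE 0.0330, limma adjusted p 1.68e-11) and -0.82 in MyoF (SE 0.0330, adjusted p 9.38e-11). Those were the largest falls among the members in either comparison, and under all 3 other scalings the MF value went past a 2-fold fall, from -1.09 to -1.12. Tef shares 193 of 7867 exon bases, 2.45%, with the antisense gene Gm17597, which was not analysed here.

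Ciart (NCBI gene 229599, chr3:95878500-95882257), with 3 E-boxes in its window, had 3.42, 3.1 and 3.7 FPKM in M-MF, against 3.42, 3.8 and 3.78 in N-MF, and these overlapped. It had 6.53, 6.38 and 6.15 FPKM in M-MyoF, against 5.08, 4.81 and 4.33 in N-MyoF, and these did not. The log2 fold change was -0.08 in MF (SE 0.0609, limma adjusted p 0.223) and 0.36 in MyoF (SE 0.0609, adjusted p 0.000128). In MF a fall passed the test under the 3 other scalings, from -0.17 to -0.23 with adjusted p between 0.00374 and 0.0206. In MyoF the rise was smaller under those scalings, from 0.19 to 0.22.

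The difference between the metastasis effects in MF and MyoF was tested as a contrast of its own. Per1 and Nr1d1 had the higher effect in MF, with differences of 0.64 (SE 0.0602, limma adjusted p 1.34e-06) and 0.62 (SE 0.0796, adjusted p 2.35e-05) on the log2 scale. Per1 had effects of opposite sign in the 2 subgroups, and Nr1d1 rose in both. Another 6 members had the lower effect in MF: Per3 (-0.56), Nr1d2 (-0.50), Ciart (-0.44), Per2 (-0.39), Cry2 (-0.37) and Tef (-0.17). For Per2, Per3, Cry2 and Tef that is a deeper fall in MF, and for Nr1d2 and Ciart a rise that passed the test in MyoF. The adjusted p of these 6 ran from 1.4e-05 to 0.00671. Cry1 (-0.11, SE 0.0676, adjusted p 0.179) and Dbp (-0.26, SE 0.133, adjusted p 0.105) did not pass. Of all genes tested 26.4% had the higher effect in MF and 38% the lower, and 7.1% differed by 2-fold or more, as did 0 members. Genes with the higher effect in MF were 41.0% of those called, and 52.3% with equal sums. At an unadjusted p under 0.05, with no demand on size, 8 members passed. Of all 13300 genes tested 8566 passed even at an adjusted p under 0.05, so such a pass is common here. The median difference was -0.31 over the members and -0.06 over all genes.

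The difference of Tef was the least firm of these. It did not pass with a pseudocount of 5 (-0.06), with equal sums per library (-0.09) or without the libraries numbered 3 (-0.15), and was 0.0021 under quantile normalization. That of Nr1d1 was 0.24 with a pseudocount of 5 and still passed. Dbp passed under quantile normalization (-0.34, adjusted p 0.0341) and without M-MyoF replicate 1 (-0.35, adjusted p 0.0227).

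The MF and MyoF subgroups also differed within normal mice. Nr1d1 averaged 3.11 ± 0.257 FPKM in N-MF and 12.5 ± 0.866 in N-MyoF (SD, n = 3 each), and Per1 17.4 ± 0.953 in N-MF and 45.6 ± 1.53 in N-MyoF. Tef and Nr1d2 were lower in N-MF too. Per3 and Dbp were higher in N-MF. In limma's test 2 members were higher in N-MF, 7 lower and 1 not called, with 24.5% of all genes higher and 57.6% lower. At 2-fold or more 2 members were called, Per1 (log2 fold change -1.34, SE 0.0426, adjusted p 7.29e-12) and Nr1d1 (-1.71, SE 0.0563, adjusted p 1.08e-11), against 16.8% of all genes. The other values were -0.67 for Tef, -0.52 for Nr1d2, -0.30 for Ciart, -0.28 for Cry1, -0.15 for Per2, 0.34 for Per3 and 0.47 for Dbp. Cry2 had a value of -0.01 (SE 0.0392, adjusted p 0.893), with 37.4 ± 1.63 FPKM in N-MF and 37.6 ± 0.734 in N-MyoF (SD, n = 3 each).

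These values depend on how libraries are scaled. The median log2 fold change of all genes was -0.21 in these values and 0.03 under median-ratio scaling and quantile normalization, and the share of higher genes among those called was 29.8% in these values, 53.8% under median-ratio scaling and 52.2% under quantile normalization. The sign turned for 4 members: Per2 had 0.13 under median-ratio scaling and 0.06 under quantile normalization, Cry2 had 0.29 and 0.11 under those settings, Cry1 had 0.0068 under median-ratio scaling and Ciart 0.02 under quantile normalization. Cry1 kept its sign and call under quantile normalization (-0.15, adjusted p 0.00693), and Ciart had -0.06 under median-ratio scaling and did not pass. Per1, Nr1d1, Nr1d2, Tef, Per3 and Dbp kept their sign and their call under the 3 scalings. Among them Nr1d2 went as low in size as -0.23 and Tef as -0.39, while Per3 went up to 0.63 and Dbp to 0.83.

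The same contrast was made within mice with metastasis. In M-MF, set against M-MyoF, 9 of 10 members were lower, 0 were higher and 1 was not called; Dbp was that member, with 0.21 (SE 0.0937, limma adjusted p 0.0554). Nr1d1 was 0.445 times as high in M-MF (log2 fold change -1.09, SE 0.0563, adjusted p 1.24e-09) and Nr1d2 0.452 times (-1.02, SE 0.0438, adjusted p 2.05e-10). These 2 members passed at 2-fold, against 13.6% of all genes, and 0 did with a pseudocount of 5 or under any of the 3 other scalings. The remaining values were -0.84 for Tef, -0.74 for Ciart, -0.70 for Per1, -0.53 for Per2, -0.39 for Cry1, -0.37 for Cry2 and -0.22 for Per3. Of all genes 19.1% were higher in M-MF and 66% lower. Under median-ratio scaling the median over all genes was -0.01 rather than -0.29 and the share of higher genes among those called was 48.8% rather than 22.4%. Under the 3 other scalings the smallest values in size were -0.53 for Tef, -0.40 for Ciart, -0.39 for Per1 and -0.22 for Per2, all of which passed. Under median-ratio scaling Per3 had 0.04, and Cry1 (-0.08) and Cry2 (-0.06) no longer passed, while under quantile normalization Per3 was 0.15. Dbp passed as higher in M-MF under all 3 other scalings, from 0.26 to 0.49.

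**Figure D4:**
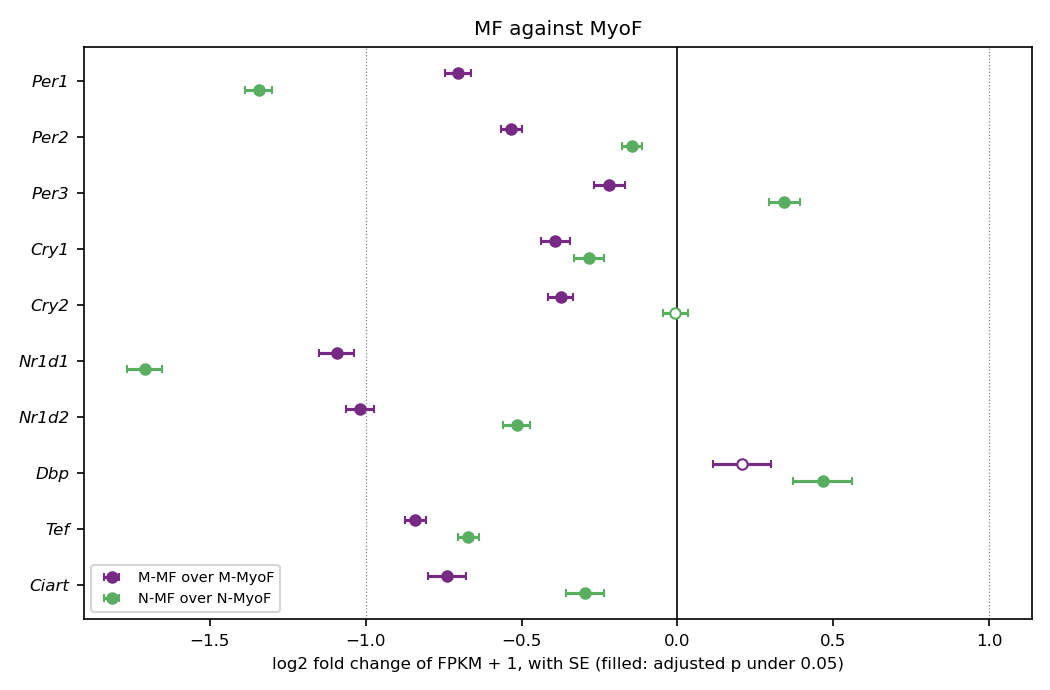
Log2 fold change of MF over MyoF, on the log2(FPKM + 1) scale, for the 10 members within metastasis (M-MF over M-MyoF) and within normal mice (N-MF over N-MyoF), with bars of 1 standard error from limma and open points for values not called. Nr1d1 is far below 0 in both, Dbp lies above 0, and Per3 lies below 0 within metastasis (-0.22) and above it within normal mice (0.34), a sign that turns within metastasis under median-ratio scaling and quantile normalization.

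Ordered by group mean from high to low, Tef, Cry1 and Cry2 ran N-MyoF, N-MF, M-MyoF, M-MF, with the first neighbours of Cry2 overlapping. Nr1d1 and Nr1d2 ran M-MyoF, N-MyoF, M-MF, N-MF, with no overlap of neighbours. Ciart shared the head of that order, M-MyoF before N-MyoF, and its MF groups overlapped. Per1 ran N-MyoF, M-MyoF, M-MF, N-MF without overlap, and Per2 ran N-MyoF, M-MyoF, N-MF, M-MF with the middle neighbours overlapping. Per3 ran N-MF, N-MyoF, M-MyoF, M-MF without overlap. Dbp was highest in N-MF, and its other groups overlapped with their neighbours.

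Likeness of pattern was described by Pearson's r of log2(FPKM + 1) over the 12 libraries, which fall into 4 tight groups and so share little more than 4 group levels. Cry1 and Tef had an r of 0.978, Nr1d2 and Ciart 0.967, Cry1 and Cry2 0.947 and Nr1d1 and Nr1d2 0.863, while Nr1d1 and Dbp had -0.887. Outside the members, with 9731 tested genes of at least 5 FPKM in a group as the pool, the nearest gene was Nfkb2 for Per1 (0.997), Tgfbi for Per2 (0.994), Foxs1 for Per3 (0.991), 2510009E07Rik for Cry1 (0.989) and Faim2 for Cry2 (0.987). It was Hmgb1 for Nr1d1 (0.998), Iqgap1 for Nr1d2 (0.996), Wdfy2 for Dbp (0.980), Calhm5 for Tef (0.998) and Miga2 for Ciart (0.985).

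Of the 4 activators, Clock, Arntl and Npas2 were lower with metastasis in both subgroups, and Arntl2 was not. Arntl, whose protein BMAL1 pairs with CLOCK, had 18.85, 18.78 and 18.15 FPKM in M-MF, against 28.84, 26.36 and 26.95 in N-MF. It had 23.99, 23.23 and 24.47 FPKM in M-MyoF, against 37.9, 37.51 and 37.31 in N-MyoF. No metastasis library reached a normal one, with log2 fold changes of -0.53 in MF (limma adjusted p 9.18e-09) and -0.63 in MyoF (adjusted p 1.44e-09). Clock fell by 0.38 on the log2 scale in MF and by 0.44 in MyoF. Npas2, which can stand in for Clock, fell by 1.32 in MF and by 1.09 in MyoF, with a mean of 3.74 FPKM in M-MF and 10.9 in N-MF, and of 3.77 in M-MyoF and 9.19 in N-MyoF. Arntl2 had 0.15 in MF, which did not pass, and rose by 0.52 in MyoF. That made 0 of 4 activators higher and 3 lower in MF, and 1 higher and 3 lower in MyoF, beside the 31.8% of all genes lower in MF and 31.6% in MyoF.

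Across libraries the pair of Nr1d1 and Arntl, a repressor and its target, differed in ratio between groups. Their r over the 12 libraries was -0.05. With metastasis Nr1d1 rose and Arntl fell, whereas both means were lower in MF than in MyoF. In N-MF the means were 3.11 FPKM for Nr1d1 and 27.4 for Arntl, against 12.5 and 37.6 in N-MyoF. In M-MF they were 9.73 and 18.6, against 21.9 and 23.9 in M-MyoF. Within a library Nr1d1 was 0.492 to 0.540 times as high as Arntl in M-MF, against 0.103 to 0.129 times in N-MF. It was 0.880 to 0.944 times as high in M-MyoF, against 0.307 to 0.347 times in N-MyoF. The 4 ranges did not overlap. The ratio was chosen after the values were seen. It does not change when a library is multiplied by a single factor, but can change under quantile normalization.

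The ROR receptors compete with REV-ERB at the elements of Arntl. Rora fell by 0.75 in MF and by 0.95 in MyoF on the log2 scale. Rorb, at 0.423 FPKM or less in every group mean, did not pass the filter.

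A further list held factors that bind D-boxes or E-boxes, most of them repressors. Nfil3, which binds D-boxes against Dbp and Tef, fell by 0.38 in MF and 0.95 in MyoF. Bhlhe40 and Bhlhe41 (DEC1 and DEC2), which bind E-boxes, fell by 0.27 and 1.10 in MF and by 0.37 and 0.21 in MyoF. Hlf, the third PAR bZIP factor, had -0.02 in MF, which did not pass, and fell by 0.67 in MyoF. In this list 3 of 4 fell in MF and 4 of 4 in MyoF, and none rose in limma's test. Over all genes tested 31.8% fell and 46.3% rose in MF, and 31.6% fell and 49.1% rose in MyoF.

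Among 7 genes that turn over or phosphorylate the PER and CRY proteins, 1 rose and 2 fell in MF, and 0 rose and 5 fell in MyoF. Over all genes 46.3% rose and 31.8% fell in MF, and 49.1% rose and 31.6% fell in MyoF, so 2 of 7 lower in MF is near the background. The kinase gene Csnk1d had log2 fold changes of 0.33 in MF and -0.07 in MyoF. Of 4 outputs of the clock, 2 rose and 1 fell in MF, and 3 rose and 1 fell in MyoF, in MF near those shares. Nampt, the rate-limiting enzyme of NAD salvage, rose by 0.98 in MF, with 32.3 FPKM in M-MF and 15.9 in N-MF, and by 0.88 in MyoF, with 152 in M-MyoF and 82.1 in N-MyoF. Noct rose by 0.47 in MF and 0.34 in MyoF, Usp2 fell by 0.19 in MF and 0.79 in MyoF, and Wee1 had -0.10 in MF, which did not pass, and rose by 0.69 in MyoF.

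**Figure D5:**
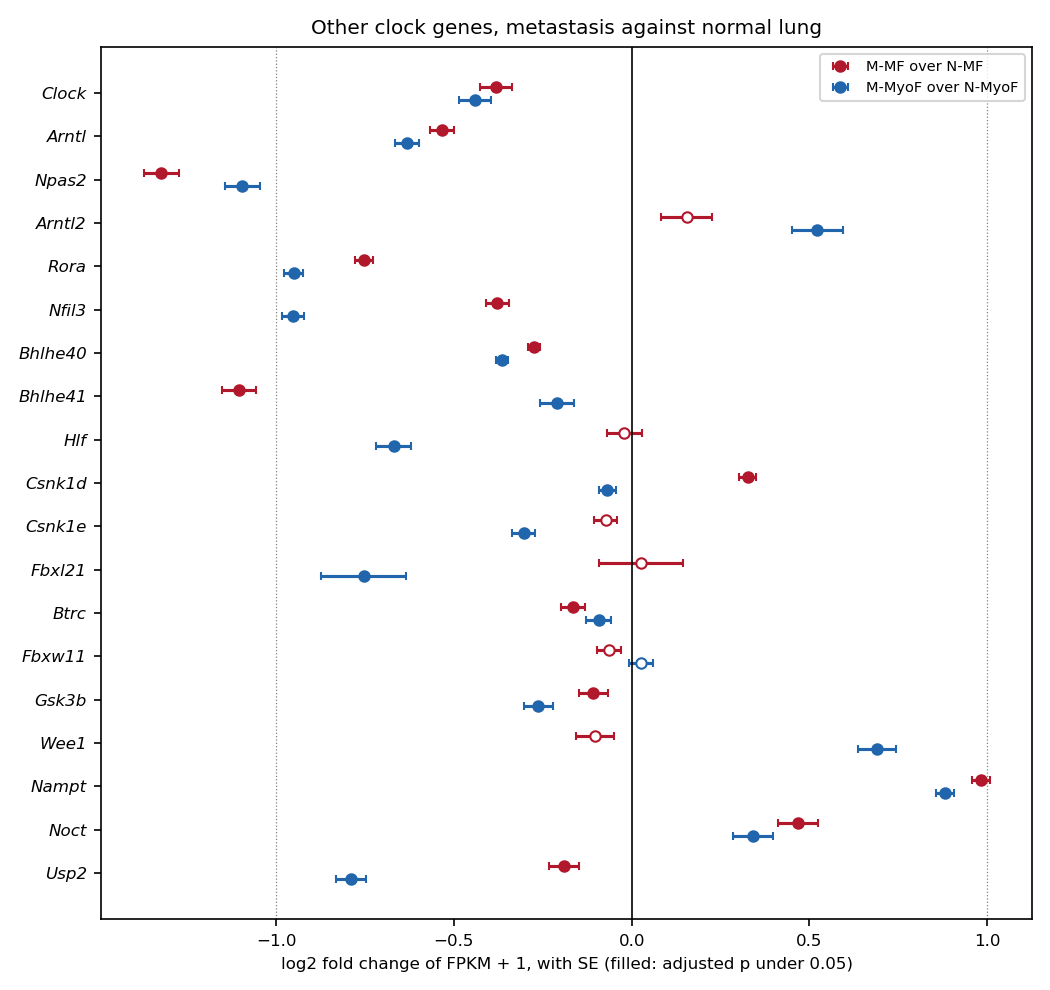
Log2 fold change with metastasis, on the log2(FPKM + 1) scale, of clock genes outside the 10 members in MF (M-MF over N-MF) and in MyoF (M-MyoF over N-MyoF), with bars of 1 standard error from limma and open points for values not called. Npas2, Rora and Arntl lie below 0 in both subgroups, and Nampt and Noct above it.

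Markers of other cell types moved with metastasis beside these results. Over all genes 46.3% rose and 31.8% fell in MF, and 49.1% rose and 31.6% fell in MyoF. Neutrophil markers rose in 8 of 8 genes in each subgroup, with median log2 fold changes of 2.49 in MF and 6.03 in MyoF. Mesothelial markers rose in 5 of 5 genes in each, summing to 211 to 215 FPKM in M-MF and 6.24 to 6.57 in N-MF, and to 161 to 168 in M-MyoF and 74.7 to 75.6 in N-MyoF. Endothelial markers summed to 744 to 759 FPKM in M-MF and 57.4 to 59.0 in N-MF, and to 233 to 235 in M-MyoF and 178 to 182 in N-MyoF. In MF most of that sum was Car4, with a mean of 702 FPKM in M-MF and 17.8 in N-MF. Pecam1, Cdh5 and Tie1 rose 1.31-fold to 1.45-fold in FPKM in MF and Kdr fell, so 4 of 5 rose and 1 fell there, and 2 rose and 2 fell in MyoF. Atrial muscle markers summed to 6.6 to 7.3 FPKM in M-MF and 32.3 to 33.8 in N-MF, and to 84.4 to 85.0 in M-MyoF and 727 to 773 in N-MyoF. Cartilage markers fell in 4 of 5 genes in MF and 5 of 5 in MyoF, summing to 8.14 to 8.82 FPKM in M-MF and 18.9 to 19.4 in N-MF, and to 23.3 to 23.9 in M-MyoF and 299 to 306 in N-MyoF. Macrophage markers rose in 0 of 5 genes tested and fell in 3 in each subgroup, with sums of 236 to 250 FPKM in M-MF and 264 to 270 in N-MF, and 952 to 990 in M-MyoF and 987 to 1033 in N-MyoF. Lyz2 made up most of the MF sums, with a mean of 237 FPKM in M-MF and 260 in N-MF, and Marco was at 0 in both MF groups.

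Markers of the labelled subgroups moved as well. Of 7 matrix fibroblast markers 6 fell in each subgroup, with sums of 1597 to 1629 FPKM in M-MF and 5469 to 5665 in N-MF, and 297 to 303 in M-MyoF and 664 to 682 in N-MyoF. Of 7 myofibroblast markers 5 rose and 2 fell in MF, and 3 rose and 3 fell in MyoF, with sums of 340 to 344 FPKM in M-MF and 457 to 475 in N-MF, and 3152 to 3221 in M-MyoF and 4658 to 4773 in N-MyoF. Over all genes 46.3% rose and 31.8% fell in MF, and 49.1% rose and 31.6% fell in MyoF. Acta2, Tagln and Des, genes of contractile cells, rose 3.32-fold, 2.62-fold and 4.32-fold in MF. Myh11, another such gene, had a mean of 1.90 FPKM in M-MF and 1.56 in N-MF. Aspn fell, with 140 FPKM in M-MF and 351 in N-MF, as did Hhip, with 43.2 in M-MF and 67.8 in N-MF. Between subgroups, 6 of 6 epithelial markers were lower in M-MF than in M-MyoF, and in N-MF than in N-MyoF. The part of such cells, and of shifts within the subgroups, in the members' values was not tested.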

How the data were processed

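The deposited table holds FPKM for 20606 mouse genes in 12 libraries, which the authors computed and gave with 2 decimals. Per the labels' protocols, Trizol was used for extraction, polyA RNA was made into cDNA and amplified with the SMART-seq2 method, and libraries were built with a transposon. Per the submitters' processing notes the build was GRCm38; aligner, counter and annotation: not given in the sources used here. FPKM keeps no absolute depth, and the spread between libraries stands for its precision. Groups came from the sample titles, and 0 columns belonged to no listed sample.

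R 4.3.3 and limma 3.58.1 were used on log2(FPKM + 1) of 13300 genes that reached 1 FPKM in 3 or more samples. A model of 4 group means with a mean-variance trend covered the 12 libraries, and 5 contrasts were tested with Benjamini-Hochberg adjustment over all genes tested; a call is an adjusted p under 0.05. The fit was tested on simulated data. Fold changes on this scale understate changes of low genes. Tables, promoters and figures used Python 3.11.15, pandas 2.3.3, numpy 2.4.6 and matplotlib 3.10.9.

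The members and gene lists were chosen with earlier results of these data known. All 10 members are named, other clock genes come from the lists, of which a few are left out here, 1 like gene of the 2 found per member is printed, and promoters follow a rule on 2-fold change except where stated.

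The library numbers 1 to 3 were checked for pairing over 1830 genes of at least 50 FPKM: deviations from the group means correlated at 0.482 to 0.796 in 18 same-numbered pairs and at -0.683 to 0.38 in 36 others, and a same-numbered library was the best match of 12 of 12. Same-numbered libraries thus shared part of their spread, also between normal mice and mice with metastasis, so the check does not show paired animals. The source of that shared part was not tested. The numbers were used as a replicate block in an alternative fit, and the main fit did not use them. Other alternatives changed the pseudocount, filter, scaling, groups fitted and trend, or left out libraries. Exon overlaps were read from GENCODE M21 on GRCm38.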

Additional observations from a re-analysis of the deposited data

Results flagged for a closer look

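For 8 members the effect of metastasis differed between MF and MyoF in a test of the difference itself, limma's contrast of M-MF against N-MF minus M-MyoF against N-MyoF on the log2(FPKM + 1) scale. Of all 13300 genes tested, 8566 passed the same contrast, so such a difference is common here. The difference was 0.64 for Per1 and 0.62 for Nr1d1. It was -0.39 for Per2, -0.56 for Per3, -0.37 for Cry2, -0.50 for Nr1d2, -0.17 for Tef and -0.44 for Ciart. Per1 was higher in 3 of 3 M-MF libraries than in any N-MF library and lower in 3 of 3 M-MyoF libraries than in any N-MyoF library. The value of Tef did not pass with a pseudocount of 5 (-0.06), with equal sums per library (-0.09) or without the libraries numbered 3 (-0.15), and was 0.0021 under quantile normalization.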

How the results depend on the processing

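Of 1135 values of single members under alternatives, 1095 kept their sign and call, 17 changed sign, 16 gained a call and 7 lost it; of 238 counts, 13 moved by more than 1.5 times. Sign changes in N-MF against N-MyoF were 0.0183 for Cry2 under equal sums, 0.29 under median-ratio scaling, 0.11 under quantile normalization and 0.0012 without the libraries numbered 3, with -0.0411 to 0.0122 when 1 library was left out. There too Per2 was 0.13 under median-ratio scaling and 0.0635 under quantile normalization, Cry1 0.0068 under median-ratio scaling and Ciart 0.0225 under quantile normalization. In M-MF against M-MyoF, Per3 was 0.037 under median-ratio scaling and 0.15 under quantile normalization. In M-MF against N-MF, Nr1d2 was -0.0184 and -0.0572 under those 2 settings. The difference of effects was 0.0140 for Cry1 and 0.0021 for Tef under quantile normalization. The replicate block changed 1 call, that of Nr1d2 in M-MF against N-MF (0.10, adjusted p 0.0329). Members called at 2-fold in M-MF against N-MF were 2 with a pseudocount of 0.1 and under all 3 other scalings, 0 with a pseudocount of 5, and 1 to 2 with 1 library left out (2 without N-MF replicate 2 or M-MF replicate 1). In M-MF against M-MyoF they were 0 with a pseudocount of 5 and under those scalings, and 1 to 2 with 1 library left out (1 without M-MF replicate 2). In M-MyoF against N-MyoF they were 1 under quantile normalization. All genes called at 2-fold numbered 1578 in M-MF against N-MF, 2397 with a pseudocount of 0.1 and 767 with 5. In M-MyoF against N-MyoF they numbered 1941, and 1072 with 5; in the difference 944, 1448 with 0.1 and 456 with 5; in N-MF against N-MyoF 2232, and 1107 with 5; in M-MF against M-MyoF 1804, 2768 with 0.1 and 861 with 5. Beyond what each setting changes by construction, the cause was not tested. Dbp gave no value at a filter of 5 FPKM. Among all genes called, the share of higher ones in M-MF against N-MF was 59.3%, against 40.9% under quantile normalization, and in M-MyoF against N-MyoF 60.8%, against 41.4%.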
